A study of Mus musculus with 8 samples.

Results

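DNA replication and S-phase genes encode the machinery that copies the genome before a cell divides. The group described here holds 40 genes, out of 20839 named genes on the array. They were matched by name in the platform annotation, and the list was chosen with earlier results of these data known. All 40 had a feature (a spot on the array), and the feature with the highest mean over the 8 arrays stood for a gene that had several. A filter on dim features, at a mean of 2.76 on the log2 scale, left 38 members in the test. Orc1 and Brca1 lay below it.

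The samples were whole lungs of newborn C57Bl/6J mice. The comparison was between pups whose genotype label reads Fgf10 +/- (TG in the titles) and wild-type pups, with 4 arrays each. Both groups spent postnatal day 0 to day 3 in 85% oxygen, and no room-air arrays were analysed here. The labels do not say what TG stands for, which part of Fgf10 the allele lacks, or which litters the pups came from, and the p-values below reflect only the variation among these 8 samples. The labelled direction has no check from Fgf10 itself. Its brightest feature read 7.81, 7.99, 8.10 and 8.28 in Fgf10+/- arrays, against 7.53, 8.16, 7.91 and 7.64 in wild-type arrays (log2 intensity), and all 10 Fgf10 features had the higher mean in Fgf10+/- arrays.

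Before S phase, the origin recognition complex, Cdc6 and Cdt1 load the Mcm2 to Mcm7 helicase onto DNA. Cdc45 and the GINS complex then activate the helicase, polymerases copy both strands with the sliding clamp Pcna, and ribonucleotide reductase and thymidylate synthase supply the nucleotides. Many of these genes are transcribed under E2F factors late in G1, whereas genes of mitosis peak later, through a promoter element known as the CHR. In the newborn lung, dividing fibroblasts, endothelial cells and epithelial cells build the alveoli.

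The promoters of the members were searched for the letters of these S-phase and mitotic elements. RefSeq windows of the GRCm38.p6 table, from 250 bases before to 50 bases after the gene start, were matched for 32 of the 40 members. E2F motifs (TTTGGCGC, TTTCCCGC, TTTCGCGC or TTTGCCGC, on either strand, where matches may overlap each other) were found in 13 of the 32, which is 40.6%. Among 46 other replication and S-phase genes, the share was nearly the same, 37.0%. They were found in 2.63% of 38 mitosis genes and in 3.81% of 13509 genes tested on the array. The CHR letters TTTGAA or TTCGAA, on either strand, were found in 18.8% of the members, in 81.6% of the mitosis genes and in 17.6% of all genes tested with a window. The letters CCAAT, on either strand, were found in 65.6%, 73.7% and 42.2% of these sets in the same order. The promoters of Mcm5, Cdt1 and Uhrf1 are shown because, among the members with E2F letters, theirs had the largest differences between the groups, and that of the mitotic cyclin gene Ccnb2 is shown for contrast. Capitals mark the E2F letters in the members and the CHR letters in Ccnb2. All run 5′ to 3′ in the direction of the gene. They lie at chr8:75109259-75109558 (plus strand), chr8:122567765-122568064 (plus strand), chr17:56304063-56304362 (plus strand) and chr9:70421505-70421804 (minus strand).
Mcm5: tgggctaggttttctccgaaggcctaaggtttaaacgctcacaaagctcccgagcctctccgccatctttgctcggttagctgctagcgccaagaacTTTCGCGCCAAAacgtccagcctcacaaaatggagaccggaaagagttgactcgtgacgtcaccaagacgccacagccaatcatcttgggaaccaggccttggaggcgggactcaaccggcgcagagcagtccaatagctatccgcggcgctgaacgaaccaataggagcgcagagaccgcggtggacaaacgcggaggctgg
Cdt1: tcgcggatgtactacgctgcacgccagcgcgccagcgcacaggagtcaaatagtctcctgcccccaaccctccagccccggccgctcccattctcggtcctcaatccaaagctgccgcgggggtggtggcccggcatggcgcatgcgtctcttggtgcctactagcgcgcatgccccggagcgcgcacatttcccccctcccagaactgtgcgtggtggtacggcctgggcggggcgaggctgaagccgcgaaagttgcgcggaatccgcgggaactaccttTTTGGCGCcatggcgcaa
Uhrf1: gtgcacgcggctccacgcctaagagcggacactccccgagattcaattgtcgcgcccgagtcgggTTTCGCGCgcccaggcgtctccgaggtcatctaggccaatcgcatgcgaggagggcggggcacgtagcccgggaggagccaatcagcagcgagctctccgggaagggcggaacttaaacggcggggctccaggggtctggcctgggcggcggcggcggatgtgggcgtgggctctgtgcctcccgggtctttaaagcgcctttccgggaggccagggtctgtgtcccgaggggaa
Ccnb2: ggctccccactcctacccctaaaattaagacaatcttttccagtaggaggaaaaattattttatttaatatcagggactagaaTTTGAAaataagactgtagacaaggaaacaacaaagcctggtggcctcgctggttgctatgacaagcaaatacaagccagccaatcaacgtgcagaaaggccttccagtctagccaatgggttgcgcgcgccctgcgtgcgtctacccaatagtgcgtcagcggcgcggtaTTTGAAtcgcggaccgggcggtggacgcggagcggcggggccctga
The Mcm5 window held 2 overlapping matches, the first beginning 153 bases before the gene start. The Uhrf1 match began 185 bases before the start and the Cdt1 match at base 33 after it. In Ccnb2 1 CHR match began 167 bases before the start and the other at base 5 after it. A match describes these letters only, and binding was not measured.

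**Figure D1:**
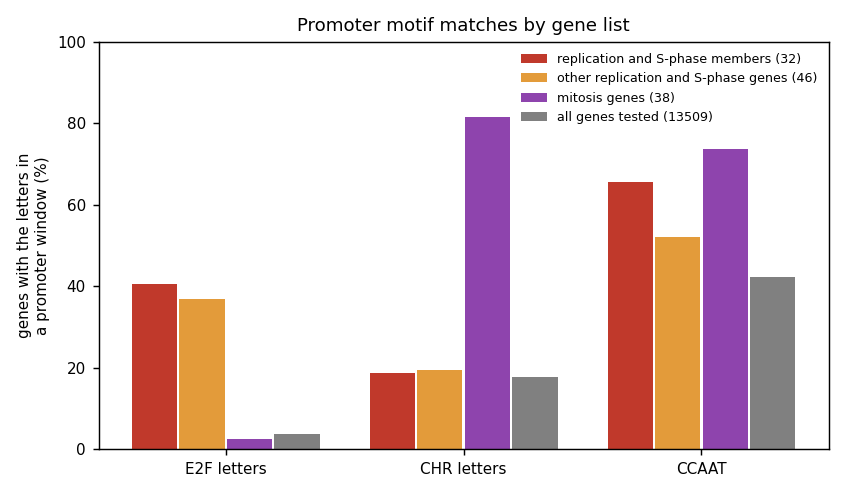
Share of genes (%) whose promoter window holds E2F letters, CHR letters or CCAAT, with the number of genes that have a window in brackets. E2F letters were found in 40.6% of the replication and S-phase members and 2.63% of the mitosis genes, and CHR letters in 18.8% and 81.6%. In the other replication and S-phase genes, E2F letters were found in 37.0% and CHR letters in 19.6%.

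In lungs labelled Fgf10+/-, replication genes read slightly lower as a group, and none of them passed the test. Of the 38 tested members, 36 had a lower mean in Fgf10+/- arrays (94.7%, against 48.7% of all 17234 genes tested). The median log2 difference was -0.27, against 0.0069 for all genes. Many members varied together over the 8 arrays, so they are not independent observations, and the list as a whole was not tested. In their mean level, Fgf10+/- arrays 1 and 4 lay above wild-type array 1, so the groups overlapped. No member was called by limma at a Benjamini-Hochberg adjusted p below 0.05, while 0.795% of all genes were called, 0.569% lower and 0.226% higher. At an unadjusted p below 0.05 there were 9 members, all with the lower mean in Fgf10+/- arrays, where 5.79% of all genes were lower and 5.39% higher at that level. When every gene was tested with its own variance estimate, 0 members were called too, but only 1 gene was called on the whole array.

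The measured intervals bounded the size of the difference for most members, as they did for most genes on the array. In 30 of the 38 members the 95% confidence interval lay wholly above -1 on the log2 scale, which is a 2-fold lower level. In 8 members it reached that value or went beyond it. Among all 17234 genes tested, the interval lay wholly above -1 in 14673. The groups were apart, with every Fgf10+/- value below every wild-type value, in 1 member, Fen1. Among all genes 3.51% were apart in this direction and 3.13% in the other. Brca1 and Orc1, not tested, had values near the bottom of the scale.

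**Figure D2:**
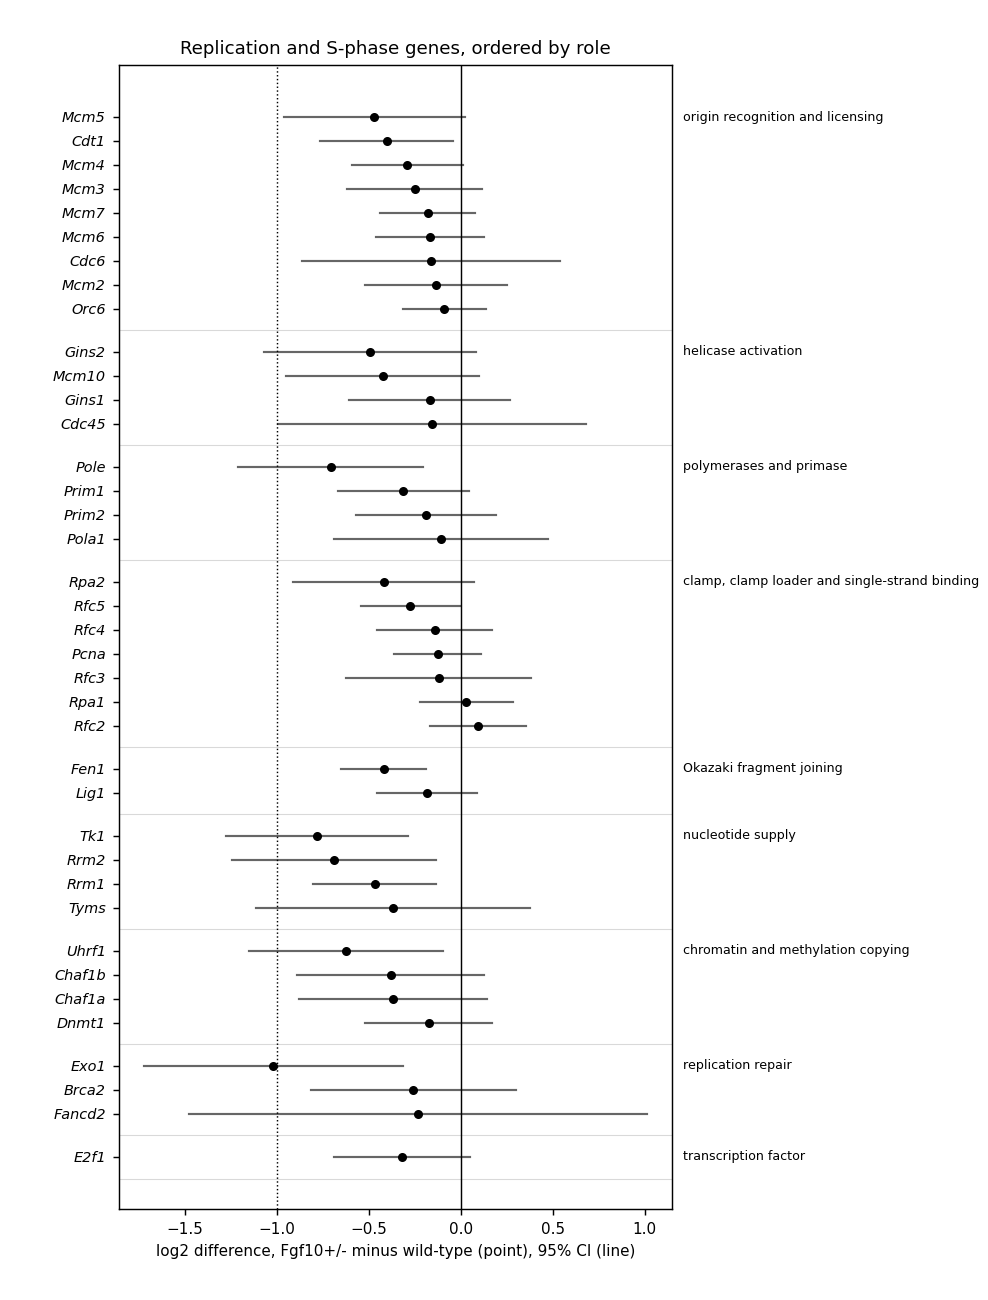
Log2 difference (Fgf10+/- minus wild-type, point) with its 95% confidence interval (line) for the 38 tested members, grouped by role, where the dotted line at -1 marks a 2-fold lower level. Of the points, 36 lie below 0, and 30 intervals lie wholly above -1. Among all 17234 genes tested, 14673 intervals lie wholly above -1.

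Nucleotide supply had the largest median difference of the roles with several members, -0.58 over 4 genes. Tk1, the thymidine kinase of dividing cells, read 8.14, 7.93, 7.37 and 8.37 in Fgf10+/- arrays, against 8.15, 9.18, 8.70 and 8.90 in wild-type arrays (log2 intensity, as are all values per array below). Wild-type array 1 lay among the Fgf10+/- values, and the other 3 wild-type arrays lay above all of them. The log2 difference was -0.78 (SE 0.23, limma adjusted p = 0.168). Rrm2, the regulated small subunit of ribonucleotide reductase, read 8.993, 8.341, 8.100 and 8.996 in Fgf10+/- arrays, against 8.499, 9.732, 9.381 and 9.571 in wild-type arrays. Wild-type array 1 again lay within the Fgf10+/- range, and the log2 difference was -0.69 (SE 0.26, limma adjusted p = 0.313).

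Without wild-type array 1, limma called Tk1 at a log2 difference of -0.98 and Rrm2 at -0.95. Their adjusted p was 0.0414 and 0.0404 there, and over all 19 alternatives it ranged to 0.474 for Tk1 and to 0.604 for Rrm2. The large subunit Rrm1 read 9.48, 9.09, 9.23 and 9.36 in Fgf10+/- arrays, against 9.36, 10.13, 9.59 and 9.96 in wild-type arrays, with overlap at wild-type array 1 alone. Its log2 difference was -0.47 (SE 0.16, limma adjusted p = 0.241). Tyms, the thymidylate synthase, read 3.47, 4.57, 4.85 and 4.54 in Fgf10+/- arrays, against 4.33, 4.85, 4.54 and 5.18 in wild-type arrays. Its groups overlapped, and its log2 difference was -0.37 (SE 0.35), a value that was -0.071 without Fgf10+/- array 1.

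Fen1, the nuclease that trims Okazaki fragments on the lagging strand, had the smallest unadjusted p of the members. It read 9.04, 8.81, 8.92 and 9.15 in Fgf10+/- arrays, against 9.39, 9.44, 9.28 and 9.49 in wild-type arrays. The log2 difference was -0.42 (95% CI -0.65 to -0.19, limma adjusted p = 0.103), a level 1.34-fold lower. Its adjusted p ranged from 0.0905 to 0.257 over the alternatives, so it was called in none of them. Lig1, the ligase that joins the fragments, had overlapping groups and a log2 difference of -0.18 (SE 0.13).

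Among the polymerases, Pole, the catalytic subunit of the leading-strand polymerase, had the largest difference. It read 8.19, 7.55, 7.41 and 8.49 in Fgf10+/- arrays, against 8.15, 8.97, 8.67 and 8.68 in wild-type arrays. Fgf10+/- arrays 2 and 3 were well below the rest, while arrays 1 and 4 lay above wild-type array 1. The log2 difference was -0.71 (SE 0.23, limma adjusted p = 0.238). The other Pole features were dim and differed by -0.17 and 0.044. Prim1, the catalytic subunit of primase, read 9.08, 8.51, 8.74 and 9.09 in Fgf10+/- arrays, against 8.86, 9.49, 8.99 and 9.33 in wild-type arrays, a log2 difference of -0.31 (SE 0.16). Pola1, the catalytic subunit of the polymerase that extends primers, read 6.38, 5.81, 5.90 and 6.90 in Fgf10+/- arrays, against 5.99, 6.70, 6.64 and 6.09 in wild-type arrays. The groups of both overlapped. Pola1 differed by -0.11 (SE 0.27) and Prim2, the other primase subunit, by -0.19 (SE 0.18).

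In origin licensing all 9 tested genes had the lower mean in Fgf10+/- arrays, with log2 differences between -0.47 and -0.09 and every interval above -1. Cdt1, which brings the helicase to origins, read 8.63, 8.21, 8.44 and 9.04 in Fgf10+/- arrays, against 8.95, 9.05, 8.72 and 9.22 in wild-type arrays. Its groups overlapped through Fgf10+/- array 4, and its log2 difference was -0.40 (SE 0.17, limma adjusted p = 0.378). The loading ATPase Cdc6 read 4.65, 3.81, 4.71 and 5.26 in Fgf10+/- arrays, against 4.52, 4.97, 4.57 and 5.01 in wild-type arrays, a log2 difference of -0.16 (SE 0.33). The 2 Cdc6 features disagreed in size. The dimmer one read 2.63, 2.99, 2.50 and 3.66 in Fgf10+/- arrays, against 3.53, 4.05, 4.28 and 4.24 in wild-type arrays, and its log2 difference was -1.08 (limma adjusted p = 0.311 when the most variable feature stood for each gene).

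Of the helicase subunits, Mcm5 read 8.58, 7.87, 7.91 and 8.83 in Fgf10+/- arrays, against 8.48, 9.31, 8.61 and 8.66 in wild-type arrays. Mcm4 read 10.64, 10.21, 10.30 and 10.72 in Fgf10+/- arrays, against 10.48, 11.08, 10.66 and 10.80 in wild-type arrays. In both subunits Fgf10+/- arrays 2 and 3 were the lowest of the 8 and wild-type array 2 was the highest. The log2 difference was -0.47 (SE 0.23) for Mcm5 and -0.29 (SE 0.14) for Mcm4. Mcm2 read 8.05, 7.55, 7.64 and 8.00 in Fgf10+/- arrays, against 7.67, 8.39, 7.88 and 7.84 in wild-type arrays, a log2 difference of -0.13 (95% CI -0.52 to 0.25). The remaining subunits differed by -0.25 (Mcm3), -0.17 (Mcm6) and -0.18 (Mcm7), and the origin recognition subunit Orc6 by -0.09. Orc1 read 2.18, 2.18, 3.31 and 2.10 in Fgf10+/- arrays, against 2.84, 3.04, 3.23 and 2.46 in wild-type arrays, and whether these dim values lay above background is unknown.

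Helicase activation gave the same picture with wider errors. The GINS subunit Gins2 differed by -0.49 (SE 0.27), Mcm10, which helps to switch the helicase on, by -0.42 (SE 0.24), and Gins1 by -0.17 (SE 0.20). Cdc45, the helicase partner, was dim and read 3.35, 3.70, 2.58 and 2.50 in Fgf10+/- arrays, against 3.46, 3.38, 2.76 and 3.16 in wild-type arrays. Its groups overlapped throughout, with a log2 difference of -0.16 (SE 0.39).

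The clamp, its loader and the single-strand binding genes had the smallest median difference of the roles, -0.12 over 7 genes, and held both members with the higher mean in Fgf10+/- arrays. Pcna read 11.35, 11.21, 11.27 and 11.50 in Fgf10+/- arrays, against 11.36, 11.79, 11.39 and 11.28 in wild-type arrays. Apart from wild-type array 2, the Pcna values of both groups covered about the same range, and the log2 difference was -0.12 (95% CI -0.36 to 0.11). Rfc5, a clamp loader subunit, read 9.41, 9.49, 9.39 and 9.60 in Fgf10+/- arrays, against 9.48, 10.08, 9.63 and 9.79 in wild-type arrays, a log2 difference of -0.27 (SE 0.12, limma adjusted p = 0.433). The loader subunits Rfc2, Rfc3 and Rfc4 differed by 0.10, -0.12 and -0.14. The dimmer Rfc4 feature differed by -0.50 (limma adjusted p = 0.441 when the most variable feature stood for each gene). Of the single-strand DNA binding subunits, Rpa1 differed by 0.030 (SE 0.12) and Rpa2 by -0.42 (SE 0.23), with overlapping groups in both. The dimmer Rpa1 feature differed by 0.20.

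Genes that copy chromatin and DNA methylation behind the fork differed by -0.62 to -0.17. Uhrf1, which recognises newly copied, still partly unmethylated DNA, read 8.44, 7.57, 7.64 and 8.50 in Fgf10+/- arrays, against 8.16, 9.20, 8.58 and 8.69 in wild-type arrays. Fgf10+/- arrays 2 and 3 stood below the other 6 arrays, and the log2 difference was -0.62 (SE 0.24, limma adjusted p = 0.341). The other Uhrf1 feature was dim and differed by -0.16. The maintenance methyltransferase Dnmt1 differed by -0.17 (SE 0.16), and the chromatin assembly subunits Chaf1a and Chaf1b by -0.37 (SE 0.24) and -0.38 (SE 0.24).

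In replication repair, the exonuclease Exo1 had the largest difference of all members. It read 4.61, 5.20, 5.10 and 6.24 in Fgf10+/- arrays, against 6.01, 6.46, 5.97 and 6.78 in wild-type arrays. Fgf10+/- array 4 lay inside the wild-type range and the other 3 lay below it. The log2 difference was -1.02 (95% CI -1.72 to -0.31, limma adjusted p = 0.223). Brca2, which loads the recombinase at broken forks, differed by -0.26 (SE 0.26). Fancd2, of the crosslink repair pathway, differed by -0.23 (SE 0.58), a value that was -0.92 without Fgf10+/- array 3, where it read 5.72 against 2.70 to 3.29 in the other Fgf10+/- arrays. Brca1, a partner of Brca2 in repair, was dim at 2.22, 2.05, 1.93 and 2.37 in Fgf10+/- arrays, against 2.18, 2.62, 3.01 and 2.97 in wild-type arrays. The transcription factor E2f1 read 7.32, 6.90, 7.22 and 6.81 in Fgf10+/- arrays, against 7.14, 7.53, 7.39 and 7.47 in wild-type arrays, with overlap at wild-type array 1 and a log2 difference of -0.32 (SE 0.17, limma adjusted p = 0.526).

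**Figure D3:**
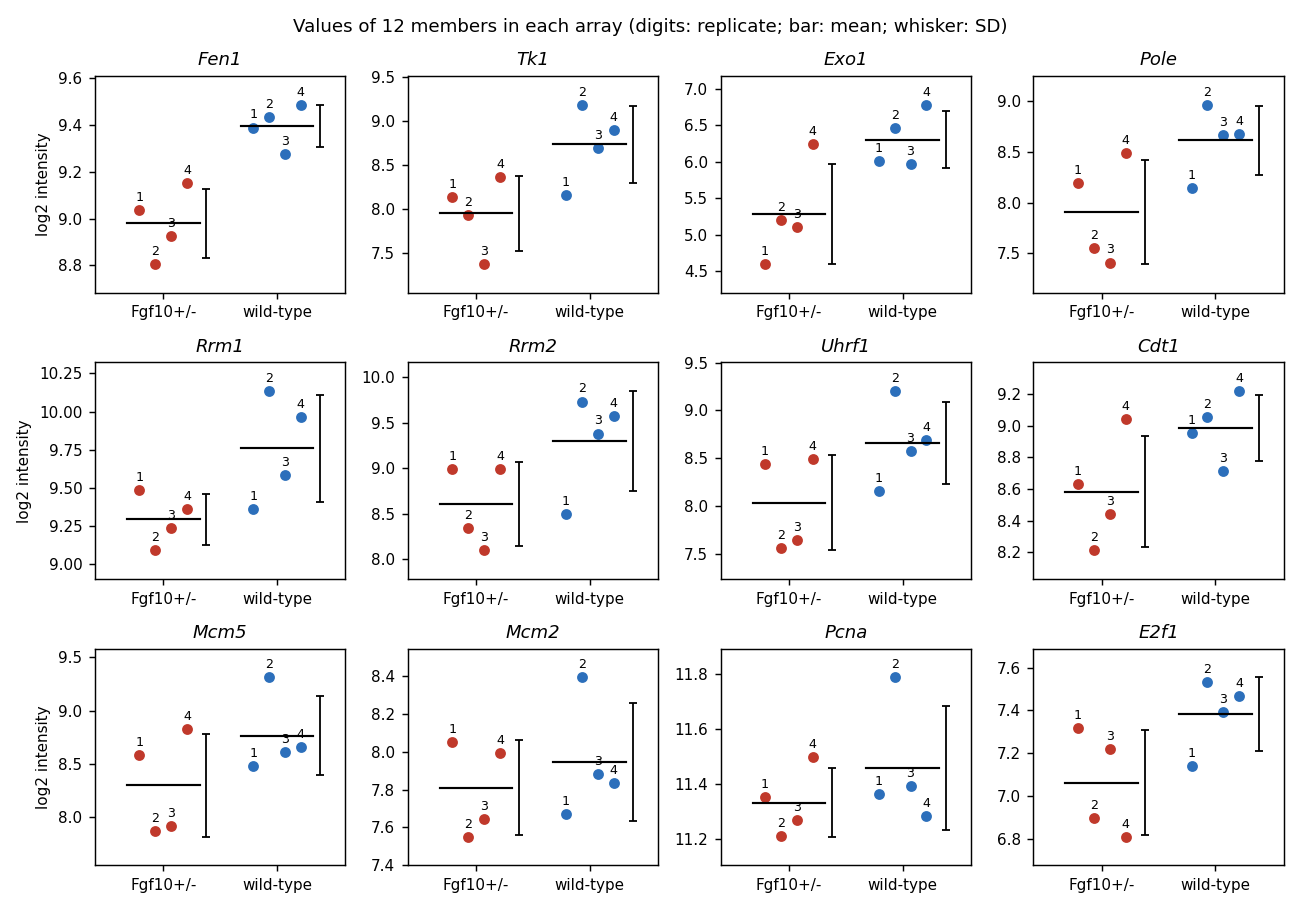
Log2 intensity of 12 members in each array, with the replicate number beside each point, the group mean as a bar and the SD as a whisker. The groups do not overlap for Fen1, and in the other 11 genes at least 1 wild-type array lies within the Fgf10+/- range.

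Many of the members moved up and down together from array to array. Fgf10+/- array 2 was the lowest of the 8 arrays in 20 of the 38 members and array 3 in 8, whereas wild-type array 2 was the highest in 25. Fgf10+/- arrays 2 and 3 were the lowest in 11.7% and 12.6% of all genes tested, and wild-type array 2 was the highest in 12.8%. The score of the members, which is their mean log2 deviation from each gene's mean over the 8 arrays, was -0.06, -0.36, -0.28 and 0.08 in Fgf10+/- arrays, against -0.07, 0.42, 0.07 and 0.22 in wild-type arrays. The groups overlapped, since Fgf10+/- arrays 1 and 4 scored above wild-type array 1. After the group means were removed, the mean correlation between pairs of members was 0.441 over the 8 arrays. It was 0.497 for mitosis genes, 0.156 for 53 other replication and S-phase genes and 0.00123 for all genes tested. All of these genes were read on the same 8 arrays. Of the members, 18 correlated above 0.8 with the mean of the others, led by Mcm4 (0.992) and Mcm6 (0.974), while 10 correlated below 0.5. Of these, 4 had a negative correlation, at -0.56 for Fancd2, -0.32 for Cdc45, -0.17 for Rfc3 and -0.03 for Tyms.

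Erythroid markers followed a similar order of arrays. Their score over 6 measured genes was 0.13, -0.47, 0.17 and 0.60 in Fgf10+/- arrays, against -0.59, 0.33, -0.46 and 0.29 in wild-type arrays. In each group the array with the lowest and the array with the highest score were the same for the erythroid markers as for the members. None of the 6 was called by limma (0 at an unadjusted p below 0.05), all 6 had the higher mean in Fgf10+/- arrays, and their mean level ran from 9.60 to 10.67 in Fgf10+/- arrays, against 9.49 to 10.41 in wild-type arrays. The part of red cell precursors in the replication values was not tested. In whole lung, fewer cells of a type and less RNA per cell cannot be told apart.

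No other marker list shared all of these lowest and highest arrays, but several shared some. Lung markers scored -0.03, -0.06, 0.08 and 0.03 in Fgf10+/- arrays, against -0.07, 0.0003, 0.02 and 0.02 in wild-type arrays. Their lowest array in each group was the same as for the members. The p53 targets listed below shared those arrays and the highest Fgf10+/- array. Macrophage markers scored -0.29, 0.01, -0.33 and -0.17 in Fgf10+/- arrays, against 0.54, -0.05, -0.09 and 0.38 in wild-type arrays. limma called 0 of the 10, and 4 were lower in Fgf10+/- arrays at an unadjusted p below 0.05. Of the 10, 8 had the lower mean in Fgf10+/- arrays, as most members did. The median log2 difference was -0.42, against -0.27 for the members. Mean levels were 8.56 to 8.91 in Fgf10+/- arrays, against 8.80 to 9.43 in wild-type arrays. Wild-type array 1, the lowest wild-type array of the members, was the highest of the macrophage list, and the part of these cells was not tested. The T cell and thymus list had 5 of 8 genes tested and 0 called by limma (0 at an unadjusted p below 0.05), with mean levels of 5.05 to 5.37 in Fgf10+/- arrays and 4.95 to 5.39 in wild-type arrays, and Rag1 and Ptcra lay below the filter. Neutrophil markers (6 tested) and heart muscle markers (7 tested) also had 0 called and 0 at an unadjusted p below 0.05, with mean levels of 8.48 to 9.35 and 10.34 to 10.58 in Fgf10+/- arrays, against 8.52 to 9.56 and 9.98 to 11.57 in wild-type arrays. All 10 lung markers were measured, among them Sftpc and Scgb1a1 at the top of the scale, and their mean level was 12.42 to 12.56 in Fgf10+/- arrays, against 12.41 to 12.50 in wild-type arrays. limma called 0 of the 10, and Nkx2-1, a transcription factor of lung epithelium, was the 1 gene at an unadjusted p below 0.05. Nkx2-1 read 10.79, 10.76, 11.02 and 10.67 in Fgf10+/- arrays, against 10.45, 10.42, 10.48 and 10.26 in wild-type arrays, a log2 difference of 0.41 (SE 0.094, limma adjusted p = 0.0692), and the groups did not overlap.

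**Figure D4:**
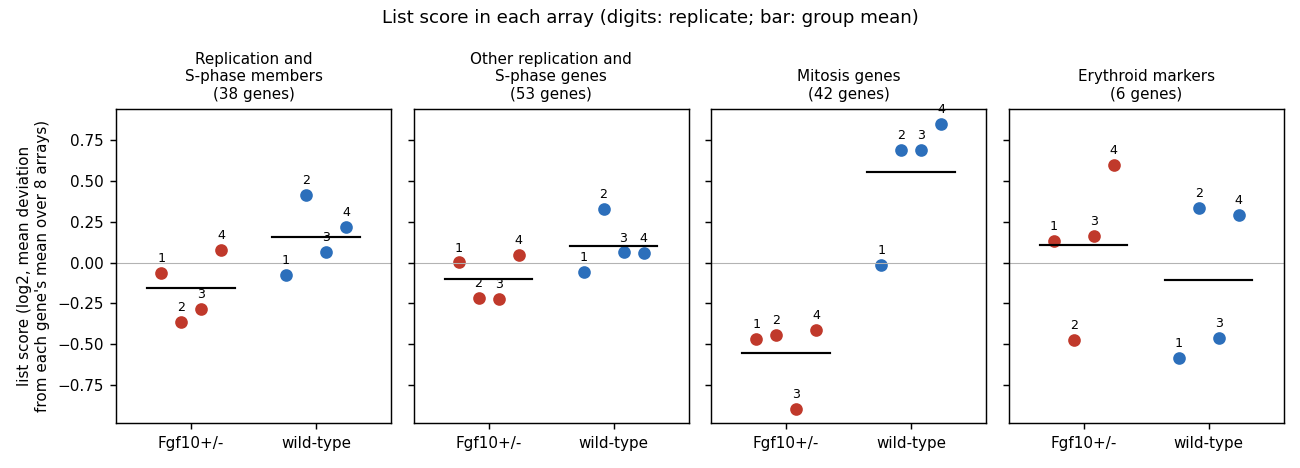
Score of each gene list in each array (log2 scale), with the replicate number beside each point and the group mean as a bar. The groups overlap for the members, the other replication genes and the erythroid markers, while every Fgf10+/- array lies below every wild-type array for the mitosis genes.

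A wider list of 56 other replication and S-phase genes, of which 53 were tested, gave smaller values than the members. limma called 0 of the 53, with 9 lower and 2 higher in Fgf10+/- arrays at an unadjusted p below 0.05. Their median log2 difference was -0.11, and 38 of them had the lower mean in Fgf10+/- arrays. The helicase gene Recql4, with the largest unadjusted p of the list, differed by -0.022 (SE 0.35). The log2 differences of the list ran from -0.94 for Ticrr to 0.53 for Mcm8. A pair of genes, both with the lower mean in Fgf10+/- arrays, was chosen after their values were seen. The histone chaperone Asf1b differed by -0.89 (SE 0.20, limma adjusted p = 0.0673) and cyclin E1 (Ccne1), which drives entry into S phase, by -0.80 (SE 0.22, limma adjusted p = 0.132).

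Mitosis genes stood beside these with larger differences on the same arrays. Of 44 listed genes 42 were tested, 21 were called lower by limma and none higher, and the median log2 difference was -1.10, against -0.27 for the members. The cyclin Ccnb2 read 8.51, 8.53, 8.07 and 8.31 in Fgf10+/- arrays, against 9.25, 9.88, 9.99 and 10.23 in wild-type arrays. Ccnb2 fell by 1.48 on the log2 scale (SE 0.18, limma adjusted p = 0.00377). The 95% interval lay wholly above -1 in 3 of the 42 mitosis genes and in 30 of the 38 members. Among all 17234 genes tested, it did so in 14673. The difference between the lists was not tested, since the lists were chosen with earlier results known.

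The arrays most often lowest or highest of the 8 were not the same in the 2 lists. Fgf10+/- array 3 was the lowest of the 8 in 30 of the 42 mitosis genes, compared with 8 of the 38 members, while Fgf10+/- array 2 was the lowest in 3 mitosis genes and 20 members. Wild-type array 2, the highest in 25 members, was the highest in 6 mitosis genes, where wild-type array 4 was the highest in 22. The mitosis score was -0.47, -0.45, -0.90 and -0.41 in Fgf10+/- arrays, against -0.013, 0.69, 0.69 and 0.85 in wild-type arrays, and these did not overlap. In both lists Fgf10+/- array 4 had the highest score of its group and wild-type array 1 the lowest of its group. The number of mitosis genes called was 26 without wild-type array 1, 5 without array 2, 13 without array 3 and 10 without array 4 of that group. It was 12 without Fgf10+/- array 3 and 14 without each of the other Fgf10+/- arrays. It was 0 without the variance trend and 0 with each gene on its own variance. Among the members with a promoter window, the 12 tested genes with E2F letters had a median difference of -0.18 and the 18 without them -0.34.

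**Figure D5:**
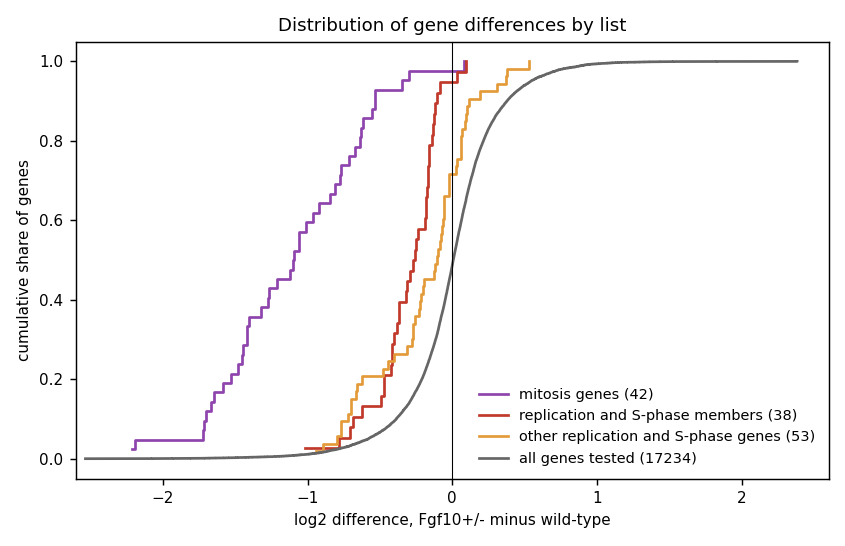
Cumulative share of genes by log2 difference (Fgf10+/- minus wild-type) for the mitosis genes, the replication and S-phase members, the other replication and S-phase genes and all genes tested. The medians are -1.10, -0.27, -0.11 and 0.0069, and the curve of the members lies between those of the mitosis genes and all genes over most of its range.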

How the data were processed

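Lung RNA was hybridised to 8 Agilent arrays with 1 dye (Cy3), per the labels. The deposited values are log2 intensities for 62976 features, with nearly identical quantiles in all arrays (column medians 3.69), and the submitters' processing notes name limma without a version. How background was corrected is not stated in the labels, there are no detection calls, and the brightest features sat at 15.99. The number of arrays limits the precision. Features with missing values (189) were left out.

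The platform annotation gave 31465 features 1 symbol each, gave none several and left 31511 unnamed here; 29050 were matched by accession to RefSeq (GRCm38.p6), which updated 2933 symbols. Features with a mean below the 30th percentile (2.76) were removed, the brightest feature stood for each gene, and 17234 genes were tested two-sided in R 4.3.3 with limma 3.58.1 (lmFit, eBayes with a variance trend), Fgf10+/- minus wild-type, with Benjamini-Hochberg adjustment over all of them. The fit was tested on simulated data in which genes varied independently, so that test does not bear on results of whole lists.

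The members and lists were chosen with earlier results of these data known. Values per array are printed for any called member, for the 12 members with the smallest unadjusted p and for a panel of 12. From other lists up to 6 called genes and the gene with the largest p could be named by rule. A few further genes of those lists were named after their values were seen. Alternatives were other filters, features, scalings and tests, array weights, the replicate number as a block, and each array left out. Same-numbered arrays had deviations with correlations from -0.0642 to 0.0675. Only Fgf10+/- array 4 correlated best with the wild-type array of its own number. The main fit treated the samples as unpaired, but so few arrays cannot exclude a pairing, for example by litter.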

Additional observations from a re-analysis of the deposited data

Results flagged for a closer look

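Outlying arrays were sought in 82 groups of 4 values (each tested member and 3 gene list scores, in each group), by the gap of the extreme array to its neighbour relative to the range of the group. Chance flags about 1 in 20 such groups, and 3 were found. Gins2 read 7.05 and Prim2 read 8.50 in wild-type array 2, far above the other 3 wild-type arrays. The mitosis score was -0.90 in Fgf10+/- array 3, far below the other 3 Fgf10+/- arrays.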

How the results depend on the processing

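No member was called in 18 of the 19 alternatives, the exception being the fit without wild-type array 1, which called Rrm2 and Tk1. The count of members called thus ranged from 0 to 2 with each array left out, and the median log2 difference of the members ranged from -0.38 without Fgf10+/- array 4 to -0.19 without wild-type array 2. It stayed between -0.30 and -0.26 under the other alternatives. With the replicate block, 116 genes were called over the array, 0 members were called and the median was -0.27. Over the array 137 genes were called with all arrays, 34 without wild-type array 2, 173 without wild-type array 1, 1 without the variance trend and 1 with each gene on its own variance, and how many genes these totals share was not counted. The cause was not tested. Of the 38 tested members, 6 changed sign in some fits with 1 array left out, and none of the 6 was called in any alternative. Cdc6 ranged from -0.38 to 0.10, Pola1 from -0.33 to 0.039 (0.0087 without Fgf10+/- array 3 and 0.0079 without wild-type array 2), Cdc45 from -0.38 to 0.020 and Mcm2 from -0.23 to 0.015. Fancd2 ranged from -0.92 to 0.088 (0.0063 without Fgf10+/- array 1 and 0.0046 without wild-type array 4), and Rpa1 from -0.066 to 0.10 (-0.012 without wild-type array 1 and -0.032 without wild-type array 3). Dim values (Orc1, Brca1, Cdc45, Fancd2, Tyms) may lie at background, which these data cannot show.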

Other observations

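Targets of p53, the factor that halts the cycle after DNA damage, were also listed. Of 13 tested genes Phlda3 was called lower by limma, and 12 were not called. Among all genes tested, 0.569% were called lower. At a limma unadjusted p below 0.05, 4 of the 13 were lower in Fgf10+/- arrays and 1 was higher. Among all genes, 5.79% were lower and 5.39% higher at that level. With each gene on its own variance, 0 genes on the whole array were called lower, so Phlda3 was not called there. Phlda3 read 12.06, 11.64, 11.51 and 11.75 in Fgf10+/- arrays, against 12.31, 12.61, 12.04 and 12.51 in wild-type arrays, a log2 difference of -0.63 (SE 0.13, limma adjusted p = 0.0448), and its groups overlapped slightly. The list had a median difference of -0.22, against 0.0069 for all genes. Fas, a death receptor gene with the largest unadjusted p of the list, differed by -0.029 (SE 0.097).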
